A study of Mus musculus with 12 samples.

Results

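The genes described here are 8 markers of endothelial tip cells and vascular sprouts, Esm1, Kcne3, Mcam, Trp53i11, Unc5b, Cd93, Cd34 and Clec14a, out of 57073 gene models in the count table. They were chosen by name, and each name had 1 row in the table. The retinas came from C57BL/6 mice at postnatal day 17. One group of 6 libraries was from mice with oxygen-induced retinopathy (OIR), labelled with 75% oxygen, and the other group of 6 was from age-matched mice kept in normoxic air. The labels name no transgene or deletion in either group. The labels give neither the length of the oxygen exposure nor the number of animals behind a library, so p-values rest on the variation among libraries, some of which may be technical. OIR libraries held 17366045 to 21594618 counts in all, and normoxic libraries 17361979 to 19390627.

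In the OIR model, high oxygen prunes the central capillaries of the pup retina, and once the pups breathe normal air again the underperfused tissue becomes hypoxic and grows new vessels, among them abnormal tufts. A growing sprout is led by a tip cell, an endothelial cell that extends filopodia along gradients of vascular endothelial growth factor (VEGF), and is followed by stalk cells that form the tube. Esm1 encodes endocan, a secreted proteoglycan used to label tip cells in the mouse retina. Kcne3 encodes an accessory subunit of potassium channels such as Kcnq1. Mcam encodes an adhesion molecule (CD146) of endothelium that pericytes and smooth muscle cells also carry. Unc5b encodes a receptor for netrins that is also found on neurons. Cd93 and Clec14a encode transmembrane proteins with a C-type lectin domain that both bind the endothelial matrix protein multimerin 2. Cd34 encodes a sialomucin of endothelial cells and blood progenitors. Trp53i11 is a gene induced by p53 whose function is less well known.

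The promoter sequences of the 2 members with the lowest normoxic levels, Esm1 and Kcne3, are shown first, because these genes had almost no counts in normoxic retinas. The 250 bases before each RefSeq start site (build GRCm38.p6, plus strand) are printed 5′ to 3′. Capitals mark ACGTG or GCGTG, the core of hypoxia response elements, and AGGAAG, an ETS-type motif, on either strand. Kcne3 has a pair of listed start sites.
Esm1, chr13:113209409-113209658: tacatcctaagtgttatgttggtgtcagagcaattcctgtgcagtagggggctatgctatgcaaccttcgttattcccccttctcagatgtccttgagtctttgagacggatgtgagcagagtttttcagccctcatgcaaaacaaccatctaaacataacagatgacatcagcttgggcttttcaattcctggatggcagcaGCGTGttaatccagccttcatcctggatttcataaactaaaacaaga
Kcne3, chr7:100176420-100176669: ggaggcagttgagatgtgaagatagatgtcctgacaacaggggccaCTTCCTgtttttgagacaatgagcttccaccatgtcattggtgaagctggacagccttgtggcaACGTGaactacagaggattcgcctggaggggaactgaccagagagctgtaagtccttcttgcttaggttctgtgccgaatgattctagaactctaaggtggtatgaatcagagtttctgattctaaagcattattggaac
Kcne3, chr7:100178433-100178682: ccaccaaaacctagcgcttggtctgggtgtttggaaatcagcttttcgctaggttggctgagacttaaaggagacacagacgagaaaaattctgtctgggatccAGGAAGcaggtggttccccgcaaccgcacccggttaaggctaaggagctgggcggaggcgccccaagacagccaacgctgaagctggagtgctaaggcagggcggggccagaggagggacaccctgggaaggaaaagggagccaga

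The Esm1 window held 1 GCGTG, whose first base lay 47 bases before the start. The upstream Kcne3 window held 1 ACGTG, 140 bases before its start, and 1 AGGAAG, and the downstream window held 1 AGGAAG only. Bases just after the upstream start matched no Kcne3 transcript of the GENCODE set, whereas those after the downstream start did. RefSeq windows were matched for 7 of the 8 members, 8 windows in all, and Cd93 had no entry. ACGTG or GCGTG was present in 5 of the 8 member windows, among them the upstream Kcne3 window, and in 38.6% of all 32851 windows of the same length. AGGAAG was present in 3 of the 8 and in 29.5% of all windows. These matches describe letters only.

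All 8 genes were higher in OIR retinas, from a 2.24-fold rise of Trp53i11 to a 227-fold ratio of counts of Esm1. For each gene, every OIR library lay above every normoxic library. The quasi-likelihood test of edgeR, with p-values adjusted over all 18275 genes by the Benjamini-Hochberg method, called 31.0% of them at 0.05. Those higher in OIR made up 16.2%, and in 9.12% every OIR library lay above every normoxic one. Esm1 and Kcne3 passed the filter on low counts through their OIR libraries alone, so only the other 6 members could have been called in either direction, and all of these rose. The median log2 fold change was 1.89 over the 8 members and -0.01 over all tested genes. In whole-retina RNA, more cells of a type and more RNA per cell cannot be told apart.

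**Figure D1:**
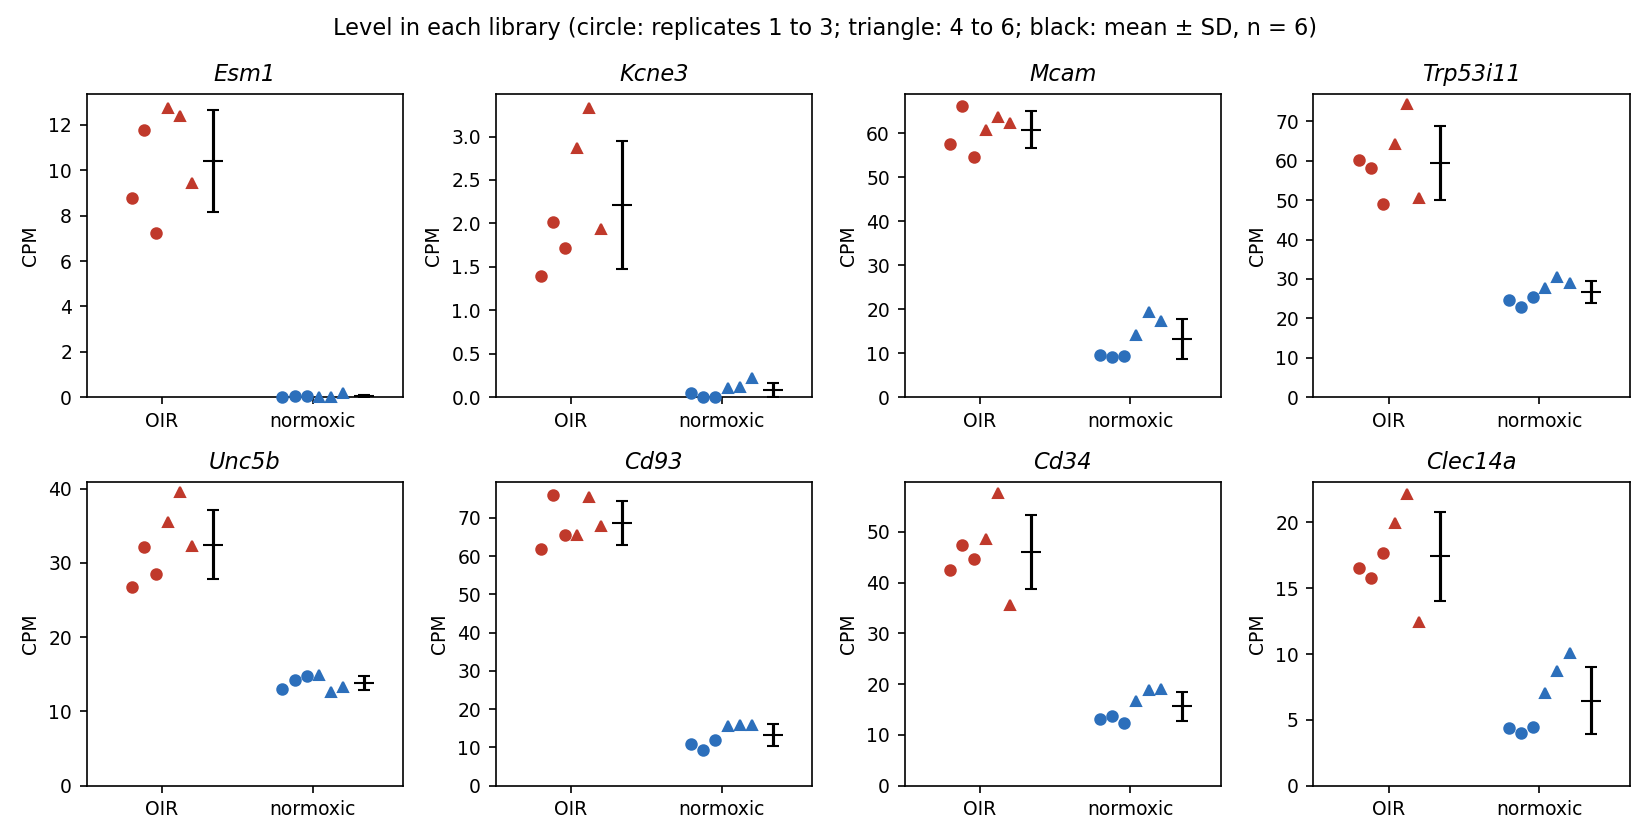
Levels of the 8 genes in each library, in CPM (counts divided by the library's total, on a common scale) on a linear axis from 0, with OIR left and normoxic right, circles for replicates 1 to 3, triangles for replicates 4 to 6, and black marks for the mean ± SD (n = 6). The groups did not overlap in any panel.

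Esm1 (chromosome 13, 113346193 to 113354632, plus strand, build GRCm39) was counted 157, 205, 156, 240, 216 and 171 times in OIR replicates 1 to 6, against 0, 1, 1, 0, 0 and 3 times in normoxic replicates 1 to 6. It was thus nearly silent in every normoxic library and present in every OIR library. The summed counts were 1145 in OIR and 5 in normoxic libraries, a ratio of 227 after scaling to library totals (95% counting interval 97.0 to 700.4, which covers counting error only). The fitted log2 fold change of 7.65 ± 0.35 (SE, edgeR adjusted p = 2.5e-11) ranked 1 of 18275 tested genes by size, but its value rests on the few normoxic counts and is no bound. Among the OIR libraries Esm1 varied 1.77-fold, between 7.22 and 12.8 CPM, with a median of 10.6 CPM.

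Kcne3 (chromosome 7, 99825709 to 99834076, plus strand) was counted 25, 35, 37, 54, 58 and 35 times in OIR replicates 1 to 6, against 1, 0, 0, 2, 2 and 4 times in the normoxic ones. The gene was scarce in both groups, but the lowest OIR library held 6.42 times the CPM of the highest normoxic one. The ratio of summed counts, 244 in OIR against 9 in normoxic, was 26.9 (95% counting interval 13.9 to 59.5). The edgeR adjusted p was 3.3e-07. OIR replicates 4 and 5, at 2.87 and 3.33 CPM, were the highest, and the other OIR libraries lay between 1.40 and 2.02 CPM. The channel subunit gene Kcnq1, whose product Kcne3 binds, rose 4.24-fold, averaging 3.30 ± 0.643 CPM in OIR and 0.777 ± 0.368 CPM in normoxic libraries (SD, n = 6 each, edgeR adjusted p = 9.8e-06). Of the other Kcne subunits, Kcne4 rose 2.56-fold (edgeR adjusted p = 0.0029). Kcne2 had a log2 fold change of 0.06 (edgeR adjusted p = 0.65) at a mean level over 90 CPM in both groups. That value joins unlike sets of Kcne2 values, at -0.13 in replicates 1 to 3 (adjusted p = 0.11) and 0.28 in replicates 4 to 6 (adjusted p = 0.0075). The difference between these sets passed its test (edgeR interaction adjusted p = 0.010). Kcne1 was too low to be tested, with 42 counts in OIR and 15 in normoxic libraries (ratio 2.77, 95% counting interval 1.51 to 5.39), and its groups overlapped.

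Cd93 (chromosome 2, 148278560 to 148285483, minus strand) was measured at 61.7 (lowest), 66.7 (median) and 76.0 CPM (highest) in OIR, against 9.33, 13.7 and 15.9 CPM in normoxic libraries. Its groups were far apart, with the lowest OIR library at 3.87 times the highest normoxic one. The log2 fold change of Cd93 was 2.38 ± 0.11 (SE, 5.21-fold, edgeR adjusted p = 3.6e-11). Clec14a (chromosome 12, 58311506 to 58316076, minus strand) had 12.4, 17.1 and 22.2 CPM in OIR, against 4.04, 5.75 and 10.1 CPM in normoxic libraries. The gap was narrow here, since OIR replicate 6 (12.4 CPM) stood close above normoxic replicate 6 (10.1 CPM). Its log2 fold change was 1.44 ± 0.20 (SE, 2.72-fold, edgeR adjusted p = 2.6e-05).

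The shared ligand gene of both lectins, Mmrn2, rose 2.55-fold, averaging 9.56 ± 2.61 CPM in OIR and 3.79 ± 1.08 CPM in normoxic libraries (SD, n = 6 each, edgeR adjusted p = 5.1e-05). Igfbp7, which encodes a matrix protein that also binds Cd93, rose 3.67-fold, averaging 218 ± 25.7 CPM in OIR and 59.7 ± 8.97 CPM in normoxic libraries (edgeR adjusted p = 8.3e-11). The remaining genes of this lectin family also rose. Cd248 (endosialin), known from pericytes and fibroblasts, rose 6.05-fold (edgeR adjusted p = 1.7e-09), and Thbd, which encodes the anticoagulant receptor thrombomodulin, rose 2.39-fold (edgeR adjusted p = 3.1e-05).

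Mcam (chromosome 9, 44045766 to 44054024, plus strand) stood at 54.7, 61.5 and 66.2 CPM (lowest, median and highest) in OIR, against 9.22, 11.9 and 19.5 CPM in normoxic libraries. The OIR libraries were tightly grouped and the normoxic libraries varied 2.11-fold. Mcam was 4.64-fold higher in OIR (2.21 ± 0.15 SE on the log2 scale, edgeR adjusted p = 5.6e-09). Lama4, the laminin alpha chain gene whose product Mcam binds and a gene of the sprout list below, rose 4.12-fold (edgeR adjusted p = 4.7e-09), and Lgals1, a galectin that also binds it, rose 2.71-fold (edgeR adjusted p = 1.1e-06). Wnt5a, another ligand, had a log2 fold change of -0.0021 ± 0.10 (SE, edgeR adjusted p = 0.99). Of the related adhesion molecule genes, Bcam rose 1.40-fold (edgeR adjusted p = 7.9e-05) and Alcam fell by 0.53 on the log2 scale (edgeR adjusted p = 5.0e-05).

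Cd34 (chromosome 1, 194621127 to 194643587, plus strand) had 35.5, 46.0 and 57.6 CPM in OIR, against 12.3, 15.2 and 19.0 CPM in normoxic libraries. OIR replicate 6 was the lowest of its group and still lay at 1.87 times the highest normoxic library. Cd34 was 2.96-fold higher in OIR (1.57 ± 0.12 SE on the log2 scale, edgeR adjusted p = 1.6e-08). Its relatives changed less or the other way. Podxl, which encodes the sialomucin podocalyxin, rose 1.34-fold (edgeR adjusted p = 1.4e-05), and Podxl2 (endoglycan) fell by 0.17 on the log2 scale (edgeR adjusted p = 0.025).

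Unc5b (chromosome 10, 60598372 to 60667360, minus strand) had 26.8, 32.2 and 39.6 CPM in OIR, against 12.7, 13.8 and 14.9 CPM in normoxic libraries. The normoxic libraries hardly varied, and the groups were well apart. Unc5b was 2.37-fold higher in OIR (1.24 ± 0.09 SE on the log2 scale, edgeR adjusted p = 1.0e-08). The other netrin receptor genes, which are known mainly from neurons, gave different values. Unc5a (log2 fold change -0.13, edgeR adjusted p = 0.21), Unc5c (0.16, adjusted p = 0.16) and Neo1 (-0.09, adjusted p = 0.22) did not pass the test over all libraries. Within replicates 1 to 3 alone, Unc5a fell by 0.27 and Unc5c rose by 0.355 (edgeR adjusted p = 0.0040 and 0.0019). Within replicates 4 to 6 they were at 0.02 and -0.0039 (adjusted p = 0.86 and 0.98). Unc5d and Dcc fell by 0.41 and 0.38 (edgeR adjusted p = 2.2e-04 and 0.0040). Among proteins that bind Unc5b, the endothelial receptor gene Robo4, which is also in the endothelial list below, rose 2.93-fold (edgeR adjusted p = 1.1e-07). Ntn1 (log2 0.20, edgeR adjusted p = 0.66), Ntn4 (0.31, adjusted p = 0.081) and Flrt3 (-0.14, adjusted p = 0.27) did not pass, and Flrt2 fell by 0.22 (adjusted p = 0.046). Ntn4 passed in replicates 1 to 3 alone (log2 0.57, edgeR adjusted p = 0.0026), against 0.03 in replicates 4 to 6 (adjusted p = 0.93).

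Trp53i11 (chromosome 2, 93017893 to 93032104, plus strand) had 49.0, 59.2 and 74.5 CPM in OIR, against 22.9, 26.5 and 30.5 CPM in normoxic libraries. The lowest OIR library lay at 1.61 times the highest normoxic one. The rise was 2.24-fold (log2 1.16 ± 0.10 SE, edgeR adjusted p = 4.3e-08), the smallest fitted fold change of the 8.

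Levels of different genes were compared in the deposited FPKM (fragments per length and library size). In OIR retinas the order of mean FPKM was Mcam (18.2 ± 1.24, SD, n = 6), Trp53i11 (16.1 ± 2.55), Cd93 (10.3 ± 0.868), Cd34 (6.31 ± 1.00), Unc5b (5.19 ± 0.739), Esm1 (4.96 ± 1.07), Clec14a (3.81 ± 0.743) and Kcne3 (1.24 ± 0.414). The libraries of Mcam and Trp53i11 overlapped, as did those of neighbours from Cd34 down to Clec14a. In normoxic retinas Trp53i11 led (7.23 ± 0.766 FPKM), ahead of Mcam (3.94 ± 1.34), and these did not overlap. Unc5b (2.21 ± 0.149), Cd34 (2.14 ± 0.404), Cd93 (1.99 ± 0.432) and Clec14a (1.41 ± 0.558) followed, with neighbours overlapping. Kcne3 and Esm1 were last and overlapped, with the highest normoxic library at 0.1225 FPKM for Kcne3 and 0.0779 FPKM for Esm1. These orders depend on the gene length used. The deposited FPKM rest on 3350 bases for Mcam and 3690 for Trp53i11, where the length column of the same table has 8560 and 13192, while Cd93 has 6677 in both. By the length column, a scale chosen after seeing the data, Cd93 (10.3) led Mcam (7.11), Esm1 (4.96) and Trp53i11 (4.51) in OIR retinas, and Trp53i11 (2.02) and Cd93 (1.99) led in normoxic retinas.

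Because endothelial genes at large were also higher in OIR, the members were compared with a list of 18 endothelial markers that holds none of them. The defining markers Pecam1 and Cdh5 were present in every library, at 42.8 to 58.8 CPM in OIR against 17.4 to 22.2 CPM in normoxic libraries for Pecam1. Of the 18, 16 rose, Slco1a4 fell by 1.06 and Tek, which encodes the Tie2 receptor, had a log2 fold change of 0.27 (edgeR adjusted p = 0.10), both named after their values were seen. The list median was 1.27. Vwf, the von Willebrand factor gene, rose 3.85-fold, while Cdh5 and Pecam1 of the cell junctions were 3.40-fold and 2.44-fold higher (edgeR adjusted p = 1.1e-09, 2.1e-09 and 1.4e-09).

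The edgeR test was then repeated over all genes with the mean log level of this list as the scale of each library. In this fit 2.31% of the tested genes were higher in OIR and 90.7% were lower, and its p-values are too small in so far as it takes the list mean as free of error. Esm1 was still higher in OIR, by 6.63 ± 0.35 on the log2 scale, and Kcne3 by 3.59 ± 0.45 (SE, edgeR adjusted p = 6.4e-17 and 3.4e-09). With almost no normoxic counts, Esm1 and Kcne3 could hardly have been lower in this fit. Cd93 was higher by 1.31 ± 0.12 and Mcam by 1.14 ± 0.15 (edgeR adjusted p = 5.2e-12 and 5.0e-09). The other members stood closer to the endothelial mean. Cd34 was higher by 0.47 ± 0.11 (edgeR adjusted p = 2.4e-04) and Clec14a by 0.35 ± 0.17 (adjusted p = 0.046). Unc5b (0.15 ± 0.11, adjusted p = 0.18) and Trp53i11 (0.07 ± 0.10, adjusted p = 0.49) did not pass, which does not show that they moved with the list.

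The result for these last genes depended on the markers. With Pecam1, Cdh5 and Tie1 alone as the scale, Cd34 was at 0.08 (edgeR adjusted p = 0.52) and Clec14a at -0.03 (adjusted p = 0.88), while Unc5b (-0.27, adjusted p = 0.038) and Trp53i11 (-0.33, adjusted p = 0.0058) were lower in OIR. Clec14a also lost its call without any of OIR replicates 1, 3, 4 or 5 or normoxic replicates 1, 2 or 3 (log2 0.25 to 0.34, adjusted p up to 0.14). Cd93 and Mcam stayed higher in OIR under both scales, and with each library left out on the scale of the whole endothelial list. So did Esm1 and Kcne3, which, with almost no normoxic counts, could hardly have gone the other way.

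**Figure D2:**
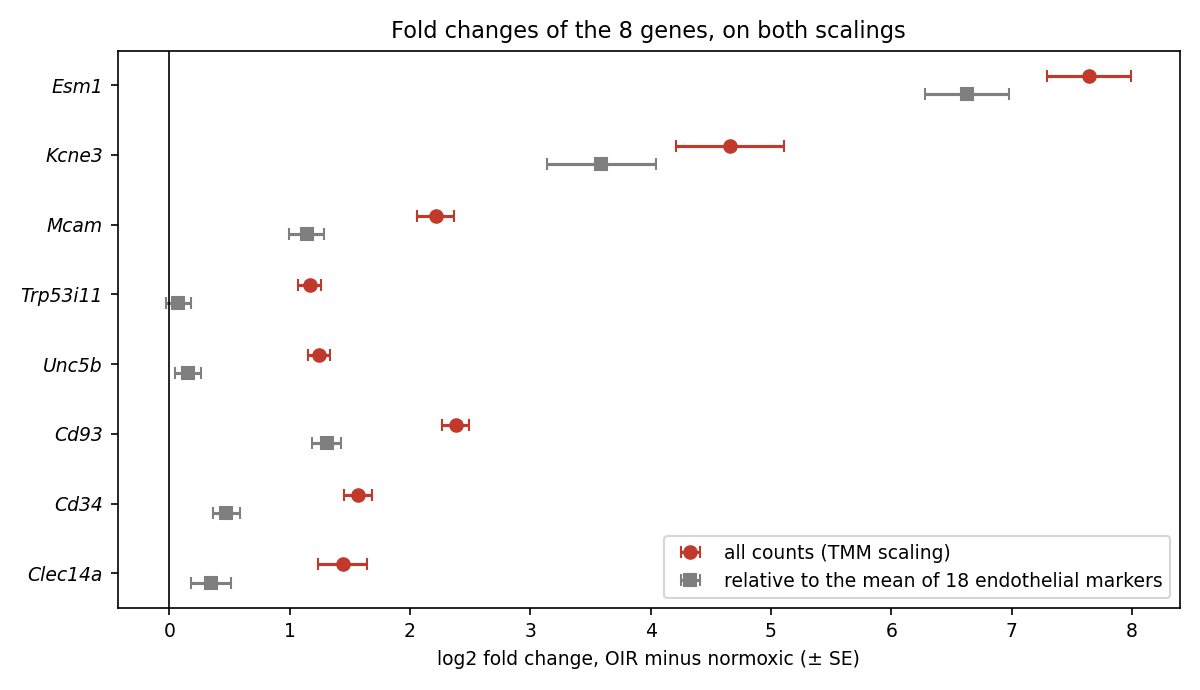
Log2 fold changes (OIR minus normoxic, ± SE) of the 8 genes, with red circles for the fit on all counts and grey squares for the fit relative to the mean of 18 endothelial markers. Esm1, Kcne3, Cd93 and Mcam lie above 1 in both of these fits, and Trp53i11 and Unc5b lie near 0 relative to the endothelial markers.

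A further 17 genes known from tip cells and sprouts all rose, with a median log2 fold change of 2.04, and in 16 of them the groups did not overlap. The exception was Kdr, the VEGF receptor gene (1.21-fold, edgeR adjusted p = 0.0045), named after its value was seen. Kdr passed within replicates 1 to 3 (log2 0.40, edgeR adjusted p = 1.8e-06) but not within replicates 4 to 6 (0.16, adjusted p = 0.19). The difference between these sets did not pass (edgeR interaction adjusted p = 0.18). Igfbp3, which encodes a binding protein of insulin-like growth factors, rose 8.38-fold, the vasodilator peptide gene Adm 22.7-fold, and Pdgfb, the growth factor gene with which tip cells recruit pericytes, 4.28-fold (edgeR adjusted p = 3.8e-12, 3.8e-12 and 4.1e-10). Relative to the endothelial list, 9 of the 17 were higher in OIR and 2 were lower. These genes were picked with earlier results of these data known, so their count is no independent evidence. Vegfa, the growth factor that tip cells follow and whose signalling endocan increases, averaged 519 ± 56.7 CPM in OIR and 229 ± 9.45 CPM in normoxic libraries (2.28-fold, edgeR adjusted p = 9.7e-11). Fn1, the fibronectin gene, rose 3.81-fold (edgeR adjusted p = 1.1e-11). Vegfc (log2 -0.25, adjusted p = 0.35) and the integrin gene Itgal (0.53, adjusted p = 0.13) did not pass the test.

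Markers of other cells that carry some of these proteins moved as well. All 8 tested pericyte and smooth muscle markers rose (median 1.28), with Acta2 9.95-fold, Des 4.19-fold and Rgs5 2.76-fold higher (edgeR adjusted p = 1.4e-11, 1.5e-09 and 7.1e-09). Tagln, the ninth of that list, was too low to test. The summed level of that list was 434 to 642 CPM in OIR against 155 to 213.5 CPM in normoxic libraries, and its part in the rise of Mcam was not tested. Of 8 microglia markers 6 rose (median 1.11), with summed levels of 111 to 146 CPM in OIR against 56.4 to 67.8 CPM in normoxic libraries. P2ry12 (log2 0.38, edgeR adjusted p = 0.10) and Tmem119 (0.17, adjusted p = 0.55) did not pass and their groups overlapped, both named after their values were seen. Laptm5, C1qa and Csf1r rose 2.81-fold, 3.40-fold and 1.95-fold (edgeR adjusted p = 5.9e-09, 1.2e-08 and 1.2e-08). Their part in the values of Cd93 and Cd34 was not tested.

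Of 7 proliferation genes 6 rose (median 3.12), among them Top2a, Cdk1 and Mki67 at 15.6-fold, 8.27-fold and 15.8-fold (edgeR adjusted p = 6.5e-09, 4.2e-07 and 5.0e-07). Of 6 ganglion cell markers Nefl and Thy1 fell by 0.65 and 0.56 (edgeR adjusted p = 9.0e-06 and 4.5e-05) and none rose over all libraries, with Pou4f2 at -0.44 (adjusted p = 0.097). Nefl and Thy1 fell in both sets of replicate numbers. Rbpms rose in replicates 1 to 3 (log2 0.31, edgeR adjusted p = 0.0034) and was at -0.26 in replicates 4 to 6 (adjusted p = 0.091). Pou4f1, Pou4f2 and Sncg fell past the threshold only in replicates 4 to 6 (log2 -0.35, -0.72 and -0.46, edgeR adjusted p = 0.022, 0.012 and 0.0041). Of 6 rod genes Pde6a rose by 0.14 and Pde6b fell by 0.13 (edgeR adjusted p = 0.022 and 0.024). All 4 red blood cell genes rose, Hbb-bs by 1.12, Hba-a1 by 0.94 and Alas2 by 0.89 (edgeR adjusted p = 4.2e-04, 0.0049 and 0.0067), with overlapping groups. Of 9 tested lens genes 4 fell, among them Bfsp2 by 2.01, Crybb2 by 2.25 and Crygs by 2.18 (edgeR adjusted p = 0.0011, 0.0095 and 0.031), with overlapping groups, and Lim2 had no counts in any library. Within replicates 4 to 6 alone, Crybb2 and Crygs did not pass (log2 -0.75 and -0.65, edgeR adjusted p = 0.38 and 0.57). The parts of free lens RNA and of blood in the members' values were not tested.

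**Figure D3:**
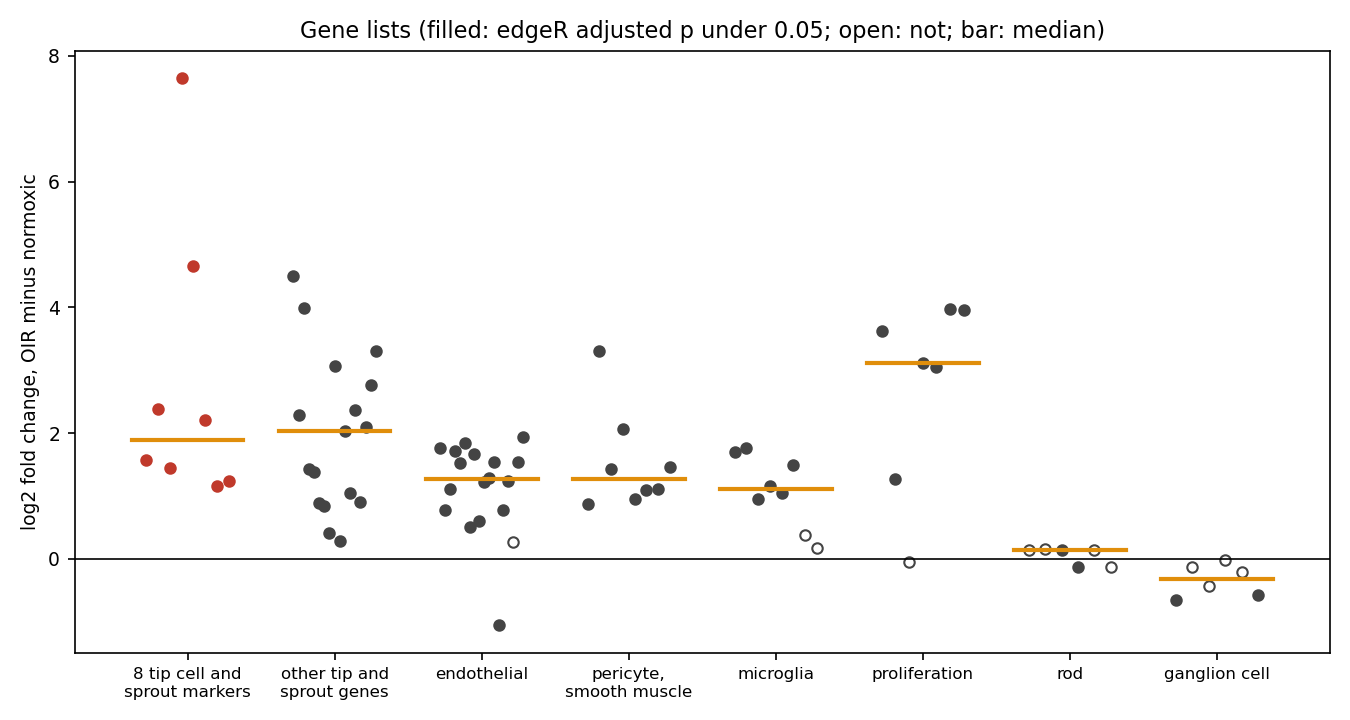
Log2 fold changes (OIR minus normoxic) of the tested genes of 8 lists, 1 point per gene, filled where the edgeR adjusted p was under 0.05, with orange bars at the list medians. The 8 tip cell and sprout markers (red, median 1.89) and the other tip and sprout genes (median 2.04) lie above 0, as do most endothelial markers (median 1.27), while rod and ganglion cell genes lie near or below 0.

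The members also varied between replicate numbers 1 to 3 and 4 to 6, sets that earlier results of these data had shown apart and that the labels do not name as batches. In normoxic retinas, replicates 4 to 6 lay above replicates 1 to 3 without overlap for Mcam (14.2 to 19.5 against 9.22 to 9.51 CPM), Clec14a (7.01 to 10.1 against 4.04 to 4.49), Cd93 (15.5 to 15.9 against 9.33 to 11.9), Cd34 (16.8 to 19.0 against 12.3 to 13.7), Trp53i11 (27.6 to 30.5 against 22.9 to 25.5) and Kcne3 (0.103 to 0.218 against 0 to 0.0531). For Kcne3 this rests on 2 to 4 counts per library against 0 to 1. Unc5b and Esm1 overlapped between these normoxic sets. In OIR retinas the sets parted without overlap in Unc5b alone of the 8, at 32.3 to 39.6 CPM in replicates 4 to 6 and 26.8 to 32.2 CPM in replicates 1 to 3.

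Within each set, all 8 genes were higher in OIR, where 20.3% of tested genes were called higher in replicates 1 to 3 and 11.6% in replicates 4 to 6. Esm1 and Kcne3, with almost no normoxic counts, could hardly have gone the other way. The test of the difference between the sets, an interaction term in edgeR that called 8.21% of all tested genes, passed for 3 members. The log2 fold change was 1.89 in replicates 4 to 6 and 2.66 in replicates 1 to 3 for Mcam (edgeR interaction adjusted p = 0.0012). It was 2.16 and 2.66 for Cd93 (adjusted p = 0.021) and 1.10 and 1.96 for Clec14a (adjusted p = 0.033), again with replicates 4 to 6 first. Cd34 (1.40 and 1.78, adjusted p = 0.17), Unc5b (1.41 and 1.06, adjusted p = 0.13) and Trp53i11 (1.14 and 1.20, adjusted p = 0.87) did not pass. For Esm1 and Kcne3 the difference could not be measured, since normoxic replicates 1 to 3 held 2 counts of Esm1 and 1 of Kcne3 in all. The summed level of the 8 genes in normoxic retinas was 96.1 to 106 CPM in replicates 4 to 6 and 73.5 to 78.3 CPM in replicates 1 to 3. The sum of the other 17 tip and sprout genes parted in the same way, at 395 to 403 CPM in replicates 4 to 6 and 341 to 368 CPM in replicates 1 to 3, as did those of the binding partners (470.0 to 489 against 422 to 439 CPM) and of the ganglion cell markers (818 to 854.5 against 626 to 722 CPM). That of the 18 endothelial markers overlapped between these sets, at 280 to 324 CPM and 287.5 to 310.9 CPM, and that of the red blood cell genes was lower in replicates 4 to 6 (55.6 to 57.7 against 98.2 to 133 CPM). What set the normoxic libraries apart was not tested.

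**Figure D4:**
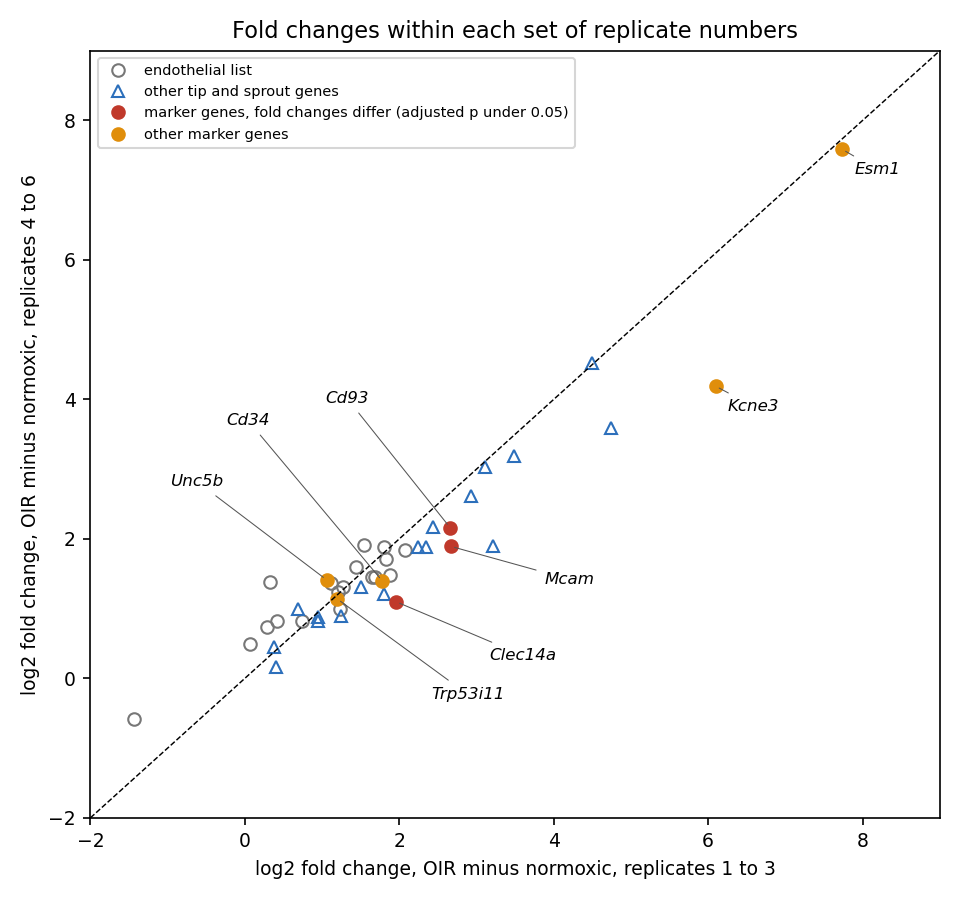
Log2 fold changes (OIR minus normoxic) within replicates 1 to 3 (horizontal axis) and within replicates 4 to 6 (vertical axis), with a dashed line of equality, red points for the 3 marker genes whose interaction passed (Mcam, Cd93 and Clec14a), orange points for the other 5, open circles for endothelial markers and open triangles for other tip and sprout genes. The 3 red points lie below the line, and the places of Esm1 and Kcne3 rest on 2 and 1 normoxic counts in replicates 1 to 3.

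For each member, the 2 genes with the most similar ups and downs among libraries of the same group were found, as the root mean square difference of log2 levels that were centred within each group and scaled to unit SD over the 12 libraries. The median over 16773 genes was between 1.33 and 1.36 SD for each member. Genes named Gm with a number, XLOC or ENSMUSG, or ending in Rik, counted in this median but were left out as matches. Some of them may lie closer than the genes named here. Clec14a was closest to Aplnr, the apelin receptor gene (0.158 SD), and Ttyh2 (0.213), and Mcam to Apln, the gene of the receptor's ligand (0.203), and Cul4a (0.218). Cd93 was closest to E2f3 (0.274) and Pdgfb (0.278), and Cd34 to Rer1 (0.269) and Spry1 (0.322). Unc5b was closest to Slco1c1 (0.272) and Akain1 (0.417), and Trp53i11 to Adamts7 (0.347) and Ric8a (0.375). Kcne3 was closest to Gper1 (0.381) and Plin2 (0.413), and Esm1 to Vangl1 (0.437) and Adgrf5 (0.480). Among the members themselves, Cd34 and Clec14a were closest (0.367 SD), followed by Mcam and Cd93 (0.432 SD). These values describe 12 libraries and take the nearest of many genes. Centring was by group only, so differences between the sets of replicate numbers described above stayed in these values. Among them was the gap between the normoxic sets in Mcam and Clec14a. The part of such gaps in the matches, including Mcam with Apln and Clec14a with Aplnr, was not tested.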

How the data were processed

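The 12 libraries were made from poly-A RNA of retinas (caught on oligo-dT, per the labels' protocols). The submitters' processing notes name build GRCm39, HTSeq, HISAT2 version 2.0.5 and Trimmomatic, without their roles. The authors deposited whole-number counts per gene and FPKM, per the file headers. No source used here gives the strand setting, and Esm1, Kcne3, Mcam and Cd34 overlap a gene on the opposite strand. That gene had 249 OIR and 138 normoxic counts for Mcam and at most 58 in a group for the others. For Kcne3 it had 5 OIR and 8 normoxic counts, where Kcne3 itself had 244 and 9. Unc5b overlaps a gene on the same strand, with 5 OIR and 6 normoxic counts. The gene length implied by the deposited FPKM of the members was below the length column for 5 of 8.

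Tests on counts used the quasi-likelihood method of edgeR version 4.0.16 under R version 4.3.3, on TMM scaling, after the filterByExpr filter (count 10, total 15). The Benjamini-Hochberg method adjusted p over all 18275 genes kept, at a threshold of 0.05. The SE is the log2 fold change divided by the root of the F statistic. CPM uses library totals. Where a group's summed counts were 20 or fewer, the ratio of counts was given with its exact 95% interval. The fit relative to endothelial markers took the library total and the mean log of CPM plus 0.5 over 18 markers as offset. The procedure was tested on simulated data. Alternatives used limma version 3.58.1 and DESeq2 version 1.42.0.

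Named genes were the 8 members, the 3 genes of each other list with the smallest adjusted p, all genes of the lists of binding partners and of relatives, and the 2 most similar genes per member (mean CPM of at least 1, log2 of CPM plus 0.5). Kcne5 was not analysed here, and some genes that this rule names are not reported here. Members and lists were chosen with earlier results of these data known. No library was merged with another, since all pairs within a group had a chi-square per degree of freedom of 3.05 or more. The depth of 17361979 to 21594618 counts limits the precision of Esm1 and Kcne3 in normoxic libraries. Promoter sequences are from RefSeq, build GRCm38.p6, and were not placed on the coordinates of the count table.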

Additional observations from a re-analysis of the deposited data

Results flagged for a closer look

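Among the 16 sets of 6 CPM values (8 genes in 2 groups), normoxic replicate 6 stood apart for Esm1 at 0.163 CPM, which is 3 counts, by a gap of 0.6475 of the group's range, more than Dixon's 95% critical value for 6 samples. Chance gives about 1 such case in 20 sets of continuous values, but these values are 0 to 3 counts with ties, to which neither that value nor that rate applies. Between the sets of replicate numbers, the OIR log2 fold change in replicates 4 to 6 minus that in replicates 1 to 3 was -0.77 for Mcam, -0.49 for Cd93 and -0.85 for Clec14a (edgeR interaction adjusted p = 0.0012, 0.021 and 0.033). The other 17 tip and sprout genes had a median of -0.27, and Apln (-1.16) and Nid2 (-1.33) passed the interaction test in the same direction (edgeR adjusted p = 5.7e-04 and 0.012). The corresponding values of the 18 endothelial markers had a median of 0.08, and the 4 of them that passed the interaction test had positive values. Of these, Esam, Flt1 and Sox17 rose more in replicates 4 to 6. Slco1a4 fell less in replicates 4 to 6 (log2 -0.58) than in replicates 1 to 3 (-1.44).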

How the results depend on the processing

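All 184 values of the 8 log2 fold changes under 23 alternatives each (scaling, filter, DESeq2, limma on FPKM, replicate terms and sets, and each library left out) kept their direction and their call. Esm1 and Kcne3 passed the filter through their OIR libraries alone, so their direction could hardly have turned and only the other 6 members were open to it. With each library left out, Esm1 ranged from 7.40 to 8.51, Kcne3 from 4.41 to 5.19, Mcam from 2.13 to 2.35, Trp53i11 from 1.09 to 1.22, Unc5b from 1.18 to 1.29, Cd93 from 2.30 to 2.44, Cd34 from 1.49 to 1.63 and Clec14a from 1.33 to 1.61. Limma on log2(FPKM + 1) gave 2.52 for Esm1 and 1.08 for Kcne3, whose normoxic FPKM lie far below that pseudocount. Genes called lower in OIR numbered 1536 in replicates 4 to 6 alone, against 2704 in all libraries. Relative to endothelial markers, the scale of Pecam1, Cdh5 and Tie1 gave 241 genes higher in OIR against 423, with Trp53i11 at -0.33, Unc5b at -0.27, Clec14a at -0.0253 and Cd34 at 0.0759. Relative to all 18 markers, with each library left out, Clec14a ranged from 0.25 to 0.48. Same-numbered libraries correlated in 2 of 6 pairs above 0.1 (-0.03 to 0.12), and 2 of 6 OIR libraries correlated best with their own number, so the numbers were not taken as pairs. The fit with the replicate number as a block called 2992 genes higher and 2683 lower in OIR and gave 1.49 for Clec14a.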
